A study of Drosophila melanogaster with 8 samples.

Results

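BEAF-32 and 4 proteins that meet it at promoters, DREF, Chromator, CP190 and Putzig, were followed at the RNA level in Drosophila S2 cells. The 5 genes are BEAF-32 (FBgn0015602), Dref (FBgn0015664), Chro (FBgn0044324), Cp190 (FBgn0000283) and pzg (FBgn0259785). They were found by their FlyBase identifiers in all 4 deposited tables, and they are 5 of 15438 genes listed in each table. All 5 passed the filter on low counts, so none was left out of a test.

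S2 is a cell line from late Drosophila embryos with hemocyte-like features. The 8 libraries fall into 4 groups. In 6 libraries the cells were stable lines, 3 libraries with wild-type Beaf and 3 with mutant Beaf, made with pUWG vectors that also carried neomycin resistance and taken from colonies that survived G418. The other 2 are a CTCF control and a CTCF knockdown, for which the protocol gives 400 µg of double-stranded RNA and 5 days, with the CTCF libraries not described as carrying a Beaf vector. The labels do not say what the Beaf mutation is, how many colonies make up a line, or whether replicate libraries of a line were grown apart. The p-values so describe the spread among these samples alone, possibly a technical one, and genotype and any further difference of the lines cannot be told apart. A pUWG vector drives its insert from a ubiquitin promoter and adds a GFP tag, as background. Reads from the chromosomal BEAF-32 gene and from the vector cannot be told apart in values per gene, so BEAF-32 values below may hold both.

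BEAF-32 is an insulator protein whose BED finger, a zinc finger named after BEAF and DREF, binds DNA near the promoters of many housekeeping genes. DREF is a transcription factor with the same type of finger that drives genes of DNA replication and proliferation, and its DNA element overlaps words that BEAF-32 recognises. Chromator is a chromodomain protein of interbands, the open regions of polytene chromosomes. CP190 is a zinc finger cofactor recruited by several insulator proteins, and Putzig, also called Z4, works with Chromator at interbands and with DREF and TRF2 in activating proliferation genes.

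Gene reads per library were 1528041 to 1885689 in the lines and 10963743 and 9267319 in the CTCF control and knockdown, so that counting error is smaller in the CTCF libraries. Mutant library 1 stood apart from the others over many genes. Wild-type library 1 did so over fewer, with a low BEAF-32 level and a low sum of hemocyte markers. In mutant library 1, 22.7% of 6564 tested genes were, after TMM scaling of the libraries, over 2-fold away from the mean of the other 2 mutant libraries, against 4.83% in the same measure for wild-type library 1, and 12268 genes were above 0 against 9070 to 9874 in the other lines. Results are therefore given with all 6 libraries and with libraries 2 and 3 of each genotype. The second choice leaves out a wild-type library that is outlying for BEAF-32 itself. The hemocyte label was checked with 12 markers, of which 8 to 12 reached 10 CPM (counts per 1000000 gene reads) in each library. Their summed level was 1694 CPM in wild-type library 1, 6283 and 6692 CPM in the other wild-type libraries, 10082 to 14309 CPM in the mutant libraries and 33732 and 25317 CPM in the CTCF control and knockdown. Markers of other cell types were also read. Of 5 neuronal, 4 muscle, 3 germline and 5 fat body markers, 0 to 3, 1 to 3, 0 to 2 and 0 reached 10 CPM in each library. The neuronal marker elav was listed at 0 in all 8 libraries, while brp was at 38.2 to 130 CPM and futsch at 7.54 to 68.7 CPM in the lines. The sum of 5 neuronal markers was 246 CPM in mutant library 1 and 58.3 to 69.5 CPM in the other libraries of the lines. Their part in the results below was not tested. Levels are CPM of bulk RNA, in which fewer cells of a type and less RNA per cell cannot be told apart.

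BEAF-32 RNA was higher in every mutant library than in every wild-type library. Wild-type libraries 1, 2 and 3 were at 25.0, 469 and 676 CPM. In the mutant libraries 1, 2 and 3 it was 1228, 1613 and 1929 CPM. The groups did not overlap, and wild-type library 1 lay far below the other wild-type libraries, at 0.0436 of their mean CPM. That library held 43 BEAF-32 reads. Its level was also below the 58.3 CPM of the CTCF control and the 66.3 CPM of the CTCF knockdown. The wild-type mean was 390 CPM with an SD of 85.3% of the mean, and the mutant mean 1590 CPM with an SD of 22.1% (n = 3 each). The summed hemocyte markers were likewise lowest in wild-type library 1 and highest in the mutant libraries, among the 6. Hml, Col4a1, vkg, srp, Sr-CI and eater followed this order, and the other markers did not. In mutant library 1 Pxn, NimC1, He and Glt were below wild-type libraries 2 and 3. The genotypes overlapped for ush, and crq was lower in every mutant than in every wild-type library. The make-up of the libraries also differed between the genotypes. Reads outside annotated features were 94.0%, 91.7% and 91.3% of wild-type libraries 1, 2 and 3 and 85.6%, 87.4% and 87.4% of the mutant libraries. Reads that did not align were 0.790%, 3.32% and 3.55% in the wild-type and 10.4%, 7.62% and 7.61% in the mutant libraries. Neither measure overlapped between the genotypes, as BEAF-32 and Dref did not, and its part in their differences was not tested.

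**Figure D1:**
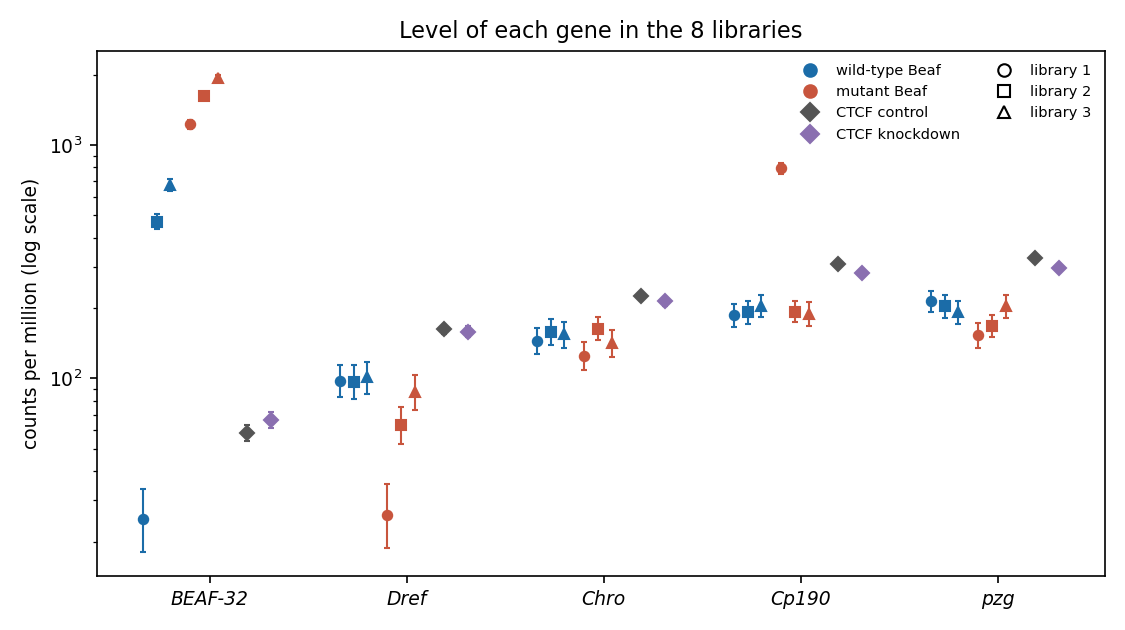
Level of each of the 5 genes in CPM, on a log scale, in the 8 libraries, with bars for the 95% counting interval of each library. Over the lines, BEAF-32 ranges from 25.0 to 1929 CPM, and Dref and Cp190 each depart in mutant library 1. Chro and pzg stay in a narrow band over the lines and are higher in both CTCF libraries.

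The Dref level was 97.5, 96.8 and 101 CPM in wild-type libraries 1, 2 and 3. In mutant libraries 1, 2 and 3 it was 26.0, 63.1 and 87.4 CPM. Every mutant library was below every wild-type library, and the mutant libraries differed among themselves by 3.36-fold while the wild-type libraries differed by 1.04-fold. The means were 98.4 ± 2.18 CPM and 58.8 ± 30.9 CPM (SD, n = 3 each). Mutant library 1 held 42 Dref reads and had the lowest level of all 8 libraries.

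The Cp190 level was 186, 192 and 205 CPM in the wild-type libraries. In mutant libraries 1, 2 and 3 it was 795, 193 and 188 CPM. A single library, mutant library 1, was high, and the other mutant libraries lay within the wild-type range. Its Cp190 level in CPM was 4.17-fold the mean of the other 2 mutant libraries, and 97.3% of tested genes had a smaller ratio in the same measure, whose median over all tested genes was 0.841. Dref stood at 0.345 in that measure, with 8.15% of genes below it. Chro at 0.819 and pzg at 0.823 were close to the middle of all genes, with 47.9% and 48.2% of genes below them.

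The Chro level was 145, 158 and 154 CPM in the wild-type libraries and 125, 163 and 142 CPM in the mutant libraries. The pzg level was 214, 204 and 192 CPM in the wild-type libraries and 153, 168 and 203 CPM in the mutant libraries. For both genes the groups overlapped. Over the 6 libraries the highest level was 1.31-fold the lowest for Chro and 1.40-fold for pzg, against 77.2-fold for BEAF-32, 3.88-fold for Dref and 4.27-fold for Cp190. Without mutant library 1 the ranges of the partners were 1.60-fold for Dref, 1.15-fold for Chro, 1.10-fold for Cp190 and 1.27-fold for pzg, while that of BEAF-32 was unchanged at 77.2-fold. The spread of TMM-scaled log2 CPM over those 5 libraries was larger for Cp190 than for 0.853% of tested genes, for Chro than for 4.97%, for pzg than for 27.8% and for Dref than for 65.5%. Over all 6 libraries these shares were 90.8% for Cp190, 1.05% for Chro, 9.34% for pzg and 83.8% for Dref. The tested genes were of any level, so the shares are not against genes of like level. Among the wild-type libraries alone, the coefficient of variation of each partner, 2.22% to 5.29%, was below the counting error of 5.53% to 7.94% expected from their reads.

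**Figure D2:**
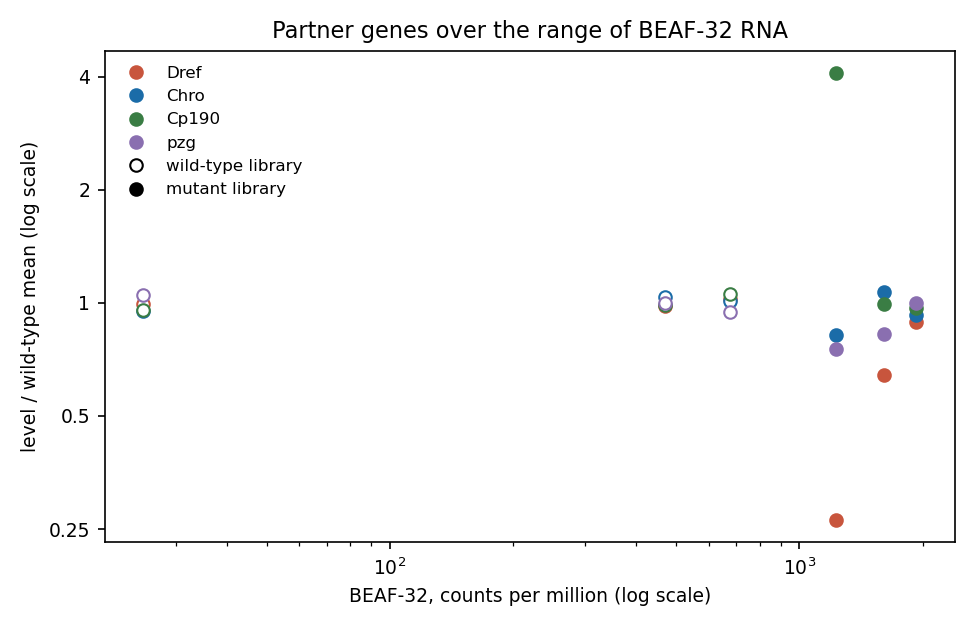
Level of each partner divided by its wild-type mean (vertical, log scale) against the BEAF-32 level in CPM (horizontal, log scale), with open points for wild-type and filled points for mutant libraries. From 25.0 to 676 CPM of BEAF-32 the partners lie near 1, and the departures of Cp190 and Dref are largest in the mutant library at 1228 CPM.

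With all 6 libraries, no member passed the test. Limma-trend was fitted to 6564 genes, with p-values adjusted by Benjamini-Hochberg over all of them, and it called 0 genes at 0.05 (0% of those tested), while 1274 had an unadjusted p under 0.05. EdgeR and limma-voom also called 0 genes, and DESeq2 called 220. The log2 fold change of mutant over wild type was 3.01 for BEAF-32 (SE 1.11, adjusted p = 0.231) and -0.84 for Dref (SE 0.35, adjusted p = 0.257). For Cp190 it was 0.72 (SE 0.59, adjusted p = 0.469), for pzg -0.17 (SE 0.14, adjusted p = 0.480) and for Chro -0.04 (SE 0.13, adjusted p = 0.873). The approximate 95% intervals reached from -0.29 to 0.21 for Chro and from -0.45 to 0.11 for pzg on the log2 scale. Of all tested genes, 17.5% had every mutant library above every wild-type library, as BEAF-32 did. The reverse, as seen for Dref, held for 18.4%.

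Within libraries 2 and 3 of each genotype, BEAF-32 rose and Dref fell in the mutant line. In this fit 9.34% of 6619 genes were called higher and 5.39% lower, and of the 5 members 1 was called in each direction. DESeq2 called 180 of 6457 genes in these libraries, against 975 in limma. BEAF-32 was higher by 1.64 on the log2 scale (SE 0.11, limma adjusted p = 2.92e-09). Both mutant libraries were above both wild-type libraries, and 99.8% of tested genes had a lower fold change. The fit left out wild-type library 1, outlying for BEAF-32 itself, so this p does not cover that spread. Dref fell by 0.41 on the log2 scale (SE 0.13, adjusted p = 0.0450 in limma) and ranked 938 of 6619 genes by p. Its call was lost with DESeq2, where the log2 fold change was -0.40 with adjusted p = 0.609, and without a scaling factor, where adjusted p = 0.0648. The other 3 did not pass, with log2 fold changes of -0.04 for Chro, -0.06 for Cp190 and -0.10 for pzg, and approximate 95% intervals of -0.22 to 0.14, -0.22 to 0.10 and -0.29 to 0.09. The Cp190 difference seen with all 6 libraries therefore changed sign once mutant library 1 was left out. With mutant library 1 alone left out, neither BEAF-32 (limma adjusted p = 0.118) nor Dref (limma adjusted p = 0.0977) passed.

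The members differed in how far the 3 pairs of columns, each a wild-type and a mutant column deposited together, gave the same ratio of mutant to wild-type CPM. For BEAF-32 it was 49.1 in pair 1, 3.44 in pair 2 and 2.85 in pair 3, with 95% counting intervals of 36.3 to 68.1, 3.17 to 3.74 and 2.66 to 3.06. For Dref it was 0.266 in pair 1, 0.652 in pair 2 and 0.867 in pair 3, with intervals of 0.185 to 0.375, 0.507 to 0.835 and 0.684 to 1.10. Dref was thus below 1 in all 3 pairs, beyond counting error in pairs 1 and 2. Cp190 stood at 4.28 in pair 1 (3.78 to 4.85) and at 1.01 and 0.920 in the other pairs, where the intervals included 1. For pzg the ratio was 0.715 (0.606 to 0.842), 0.826 (0.704 to 0.969) and 1.06 (0.900 to 1.24). The Chro ratio was 0.864, 1.03 and 0.920, and its interval included 1 in each pair. These intervals cover counting error only, and those of pair 3 treat the deposited values of wild-type library 3 as reads.

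**Figure D3:**
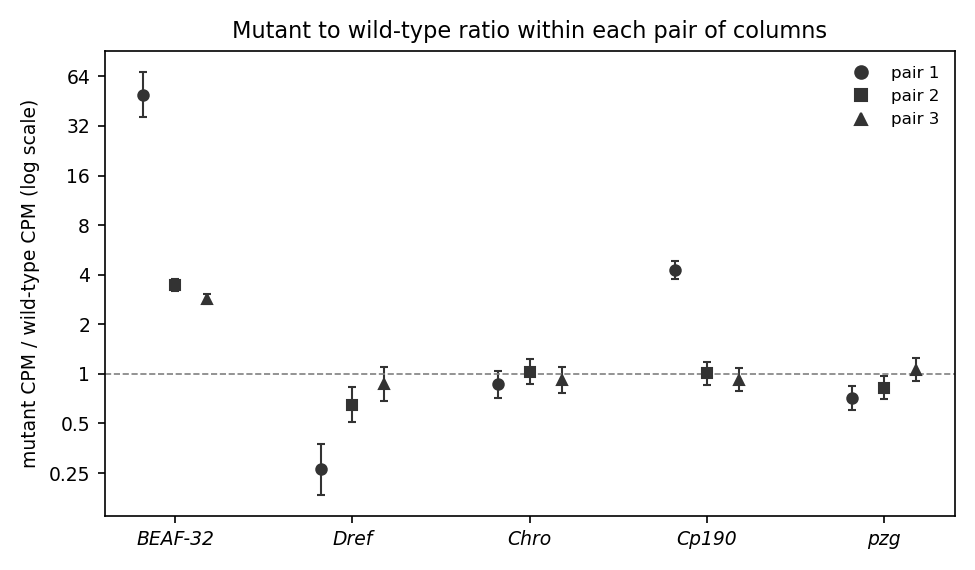
Ratio of mutant to wild-type CPM within each of the 3 pairs of columns (log scale), with bars for the 95% counting interval and a dashed line at 1. BEAF-32 lies above 1 in all pairs, from 2.85 to 49.1, Cp190 departs in pair 1 alone, and the intervals of Chro include 1 in each pair.

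BEAF-32 and Dref were also compared within libraries, as a ratio that does not depend on depth or scaling. For each Dref read there were 0.256, 4.84 and 6.70 BEAF-32 reads in wild-type libraries 1, 2 and 3. In mutant libraries 1, 2 and 3 the ratio was 47.2, 25.6 and 22.1. In the CTCF control and knockdown it was 0.359 and 0.418, close to wild-type library 1, though the preparation of the libraries may differ. The groups of the lines did not overlap, and the mean log2 ratio was higher in the mutant by 3.88, or by 2.06 in libraries 2 and 3. Since BEAF-32 was above and Dref below in every mutant library, this separation follows from their levels, and its two-sided exact permutation p, 0.1, adds nothing to them. The log2 ratio of Dref to pzg was lower in the mutant by a difference of -0.68, again without overlap. Its two-sided exact permutation p was 0.1, the smallest that 3 against 3 libraries allow, and 0.3 after Benjamini-Hochberg adjustment over the 6 ratios computed. The ratio of Cp190 to Chro was 1.29, 1.21 and 1.33 in the wild-type libraries, 6.36 in mutant library 1, and 1.18 and 1.33 in mutant libraries 2 and 3.

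Levels were compared between genes per kilobase of exon, with exonic lengths from BDGP6.54, an annotation that may differ from the one behind the tables. In wild-type library 1 and both CTCF libraries BEAF-32 was the lowest of the 5, at 13.0, 30.4 and 34.5 CPM per kilobase. In the other 5 libraries it was the highest, from 244 CPM per kilobase in wild-type library 2 to 1005 in mutant library 3. In the same scale pzg and Cp190 exceeded Chro and Dref in each of the 8 libraries. In wild-type libraries pzg was at 47.0 to 52.3 and Cp190 at 43.3 to 47.7 CPM per kilobase, ranges that overlap. Chro at 33.9 to 37.1 and Dref at 33.7 to 35.1 CPM per kilobase also overlapped there, and in wild-type library 1 their order turned when the longest transcript gave the length.

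The CTCF libraries addressed depletion of another insulator protein, with 1 library a group and so no test. CTCF itself fell from 55.4 CPM in the control to 11.3 CPM in the knockdown, a ratio of 0.205 (95% counting interval 0.165 to 0.252). Knockdown over control was 1.14 for BEAF-32 (1.02 to 1.27), 0.978 for Dref (0.912 to 1.05) and 0.947 for Chro (0.892 to 1.01). It was 0.916 for Cp190 (0.870 to 0.964) and 0.910 for pzg (0.865 to 0.956), against a median of 1.03 over 6082 genes with a mean of at least 10 CPM. None of the 5 passed 1.5-fold, while 1.46% of those genes were past it upwards and 0.543% downwards. Scaled by the median ratio, the 5 ratios were 1.10, 0.947, 0.917, 0.887 and 0.881.

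**Figure D4:**
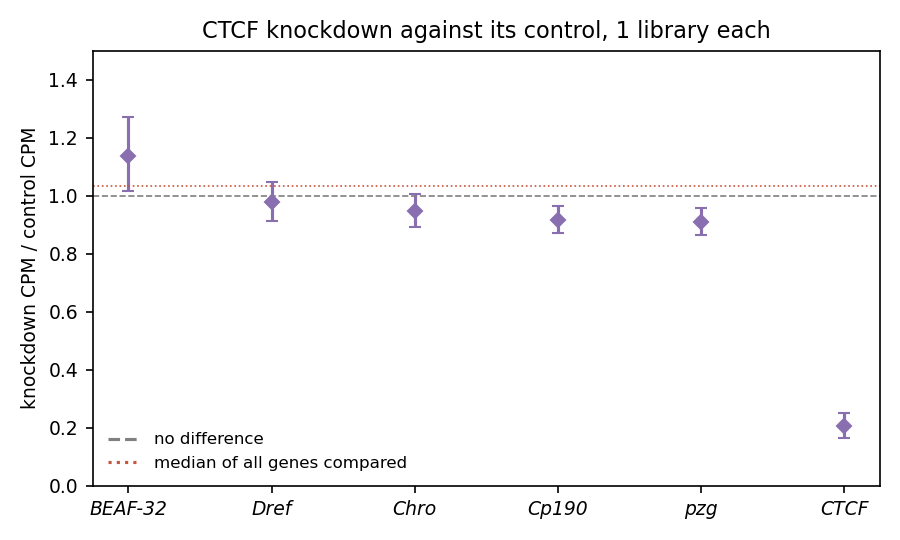
Ratio of knockdown to control CPM for the 5 genes and for CTCF, the targeted gene, with bars for the 95% counting interval, a dashed line at 1 and a dotted line at the median of all genes, 1.03. CTCF lies at 0.205 and the 5 genes between 0.910 and 1.14.

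Proteins that work with the 5 were read from 3 lists: insulator and architectural proteins, cofactors of DREF, TRF2 and NURF, and partners of Chromator in chromosome bands. Without the 5 members they held 42 genes, of which 36 were tested. With all 6 libraries 0 of 36 passed. In libraries 2 and 3, 1 was called higher and 4 lower, or 2.78% and 11.1%, beside 9.34% and 5.39% of all tested genes. The median log2 fold change was -0.04, against -0.01 for all tested genes.

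The gene called higher was Stat92E, the transcription factor of the JAK/STAT pathway, at a log2 fold change of 0.27 (adjusted p = 0.0171 in limma). Its level was 224, 262 and 280 CPM in the wild-type and 238, 331 and 325 CPM in the mutant libraries, so the groups of 3 overlapped. Nup98-96, which encodes nucleoporins of the nuclear pore, was at a log2 fold change of -0.31 (adjusted p = 0.00429 in limma). Lam, the B-type lamin of the nuclear envelope, was at -0.30 (adjusted p = 0.0114 in limma). Both were lowest in mutant library 1, where Nup98-96 was at 192 CPM against 413 to 575 CPM in the other lines and Lam at 132 CPM against 293 to 415 CPM. Iswi, the ATPase of the NURF remodelling complex, was at -0.28 on the same scale (adjusted p = 0.0485 in limma). The WD-repeat gene wds, whose product belongs to histone methyltransferase and acetyltransferase complexes, was at -0.50 (adjusted p = 0.0252 in limma). Its level was 58.9, 60.8 and 59.5 CPM in the wild-type and 27.2, 39.2 and 45.3 CPM in the mutant libraries, with no overlap. Nup98-96, Lam and Iswi did not overlap either. Of the 36 listed genes tested, 5 had every mutant library below every wild-type library and 4 had every one above. Over all tested genes these shares were 18.4% and 17.5%. Only CTCF itself was past 1.5-fold among these genes after CTCF depletion.

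**Figure D5:**
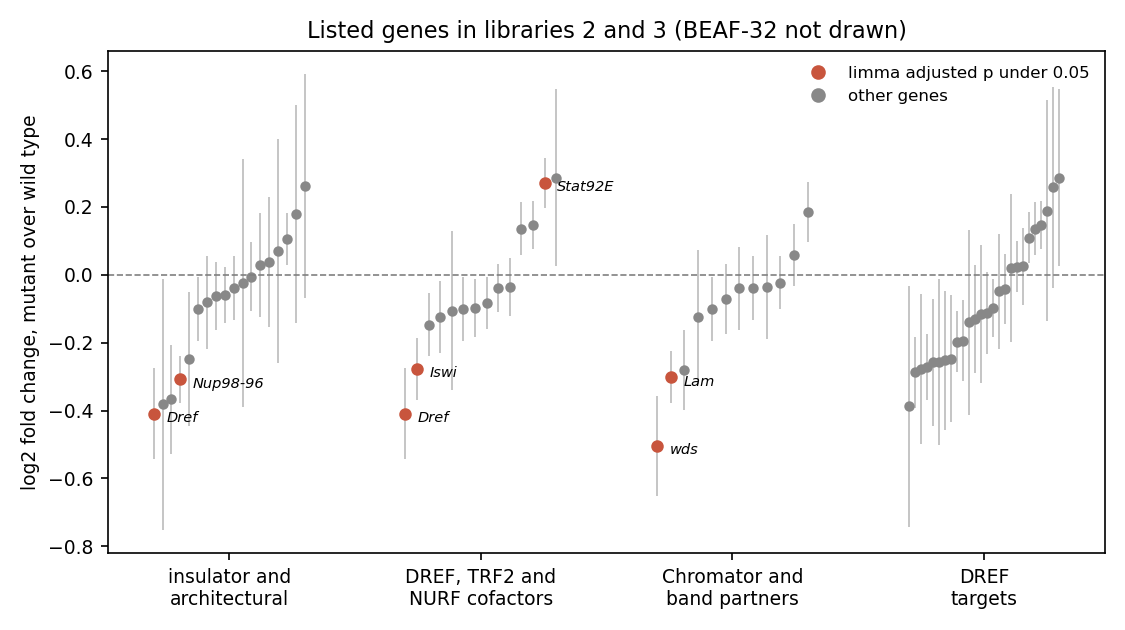
Log2 fold change of mutant over wild type in libraries 2 and 3 for the tested genes of the 4 lists, with bars for the standard error and coloured points for genes with limma adjusted p under 0.05. BEAF-32, at 1.64, is not drawn. The called genes are Dref, Nup98-96, Iswi, Stat92E, Lam and wds, and no DREF target is called.

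Genes known as DREF targets were read as a further list, of which 26 were in the tables and tested in libraries 2 and 3. None was called, beside 9.34% of all tested genes called higher and 5.39% called lower. Their median log2 fold change was -0.11 against -0.01 for all genes, and 65.4% lay below 0 against 51.4%. The list's entry ras matched the gene raspberry, which is a doubtful member, and without it the median was again -0.11, with 64% of 25 genes below 0. PCNA, the replication clamp, was at 151, 140 and 136 CPM in the wild-type and 53.2, 109 and 119 CPM in the mutant libraries. Its groups did not overlap, with a log2 fold change of -0.27 in libraries 2 and 3 that did not pass (limma adjusted p = 0.0668). Mcm6, a subunit of the replicative helicase, had a log2 fold change of -0.29 and did not pass either (limma adjusted p = 0.0722). With all 6 libraries 0 of 25 tested targets were called, with a median of -0.11 against -0.02 for all genes. Of these 25, 5 had every mutant library below every wild-type library, and 3 (osa, Trf2 and skd) had every one above. Over all tested genes these shares were 18.4% and 17.5%. After CTCF depletion 1 of 26 compared targets was past 1.5-fold, beside 1.46% of all compared genes upwards and 0.543% downwards. It was Raf, a kinase of the MAP kinase pathway, at 63.7 CPM in the control and 40.4 CPM in the knockdown.

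The genes most like each member were taken as the 3 with the highest Pearson correlation of log2 CPM over the 6 libraries, among 5823 genes. These points share libraries and depth, and the values are a description. For BEAF-32 they were Erasp and Sr-CI, each at r = 0.998, and CG7720 at r = 0.997. Sr-CI, a scavenger receptor and 1 of the 12 hemocyte markers, was at 0.942, 39.7 and 49.5 CPM in the wild-type and 103, 145 and 130 CPM in the mutant libraries. For Dref they were HP1b, Agpat3 and asp, led by HP1b at r = 0.999, and 754 genes reached r = 0.95 with it. For Cp190 they were east, RpS7 and RpL12, led by east at r = 0.998. The gene east, of the nuclear matrix, was at 216 to 226 CPM in the other 5 libraries and at 405 CPM in mutant library 1. For Chro and pzg the leading genes were beta4GalT7 and CG12608, each at r = 0.985. These genes depended on mutant library 1. Over the 5 libraries without it the leading gene was hiw for BEAF-32, Trmt6 for Dref, Taf7 for Chro, mRpL1 for Cp190 and alpha-Est1 for pzg, and of the genes named above HP1b alone was still among the first 3. The number of genes at r of at least 0.95 went from 95 to 376 for BEAF-32, from 754 to 64 for Dref and from 230 to 35 for Cp190. For Chro it went from 26 to 19 and for pzg from 39 to 33.

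In the BDGP6.54 annotation the 5 genes lie on 4 chromosome arms. BEAF-32 is at 2R:14770469-14772630 on the plus strand, Dref at 2L:9964147-9967229 on the minus strand and Cp190 at 3R:15270432-15275241 on the minus strand. Chro at 3L:22873702-22878984, on the minus strand, and pzg at 3L:21286099-21290310, on the plus strand, share an arm. Of the 5, 4 have a coding gene that starts head to head within 500 bases, as do 24.9% of coding genes. The start of Dref is 84 bases from that of RpL13, a ribosomal protein gene, and the start of Chro is 105 bases from that of Ssl1, a subunit of TFIIH. RpL13 was at 941, 912 and 844 CPM in the wild-type and 1253, 846 and 729 CPM in the mutant libraries, so the groups overlapped. Among the 6 libraries of the lines, mutant library 1 thus had the highest RpL13 level and the lowest Dref level. RpL13 was higher still in the CTCF control and knockdown, at 1617 and 1503 CPM. RpS7 and RpL12, the ribosomal protein genes named above for Cp190, were also highest in mutant library 1 among the lines. They were at 1484 CPM against 837 to 894 and at 1361 CPM against 535 to 582, so a high level there was not particular to RpL13.

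The BEAF-32 neighbour kn lies tail to tail at a gap of 19 bases and was at 41.5 CPM in mutant library 1, against at most 4.24 CPM in the other 7. The pzg neighbour CG12974 was likewise at 8.05 CPM there, against at most 0.863 CPM in the other 7. Mutant library 1 had 12268 genes above 0, against 9070 to 9874 in the other lines, so such a rise was not particular to kn. No neighbour tested on either side of the 5 was called, and kn, CG12974 and Cpr78Ca were not tested. Of all tested genes 0% were called with all 6 libraries, and 9.34% higher and 5.39% lower in libraries 2 and 3. The tested neighbours are too few to be set apart from those shares. An antisense RNA gene, asRNA:CR42254, covers 24.9% of the exonic bases of BEAF-32. It was at 0 to 5.64 CPM in the lines and at 8.65 and 13.7 CPM in the CTCF control and knockdown. Whether the counting used strand is not given in the sources used here. Without strand, reads from this stretch could not be told apart between the 2 genes. The deposited values set ambiguous reads apart, so such reads may count for neither gene. BEAF-32 levels, also per kilobase, may then be too low.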

How the data were processed

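The authors deposited 4 tables of values per gene for 8 libraries. The submitters' processing notes name CASAVA 1.8, BWA and HTSeq. Genome build, annotation and strand setting: not given in the sources used here. The deposited mutant and knockdown columns hold read counts. The deposited wild-type and control columns hold a signal, read from the values as counts multiplied by 1 factor per column. Factors of 1.234, 1.237 and 1.297 gave whole reads for 99.99% to 100% of positive values in wild-type libraries 1 and 2 and the control, where whole means that a whole number times the factor, rounded, equals the deposited value exactly, and wild-type library 3 was used as deposited. Rows of unassigned reads were left out. Reads outside annotated features were 85.6% to 94.0% in the lines, and 8.05% and 6.93% in the CTCF control and knockdown. Column names carry no replicate number, so numbers name the file a column came from.

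Limma-trend (limma 3.58.1, R 4.3.3) was fitted to log2 CPM of deposited values with TMM factors, filterByExpr and a prior count of 2, two-sided at 0.05. EdgeR 4.0.16, DESeq2 1.42.0 and limma-voom on recovered reads, other scalings, filters and prior counts, left-out libraries and a block for the table were alternatives. CPM values are of the deposited values, while read numbers, counting intervals and the ratios that carry them use recovered reads. No reads were recovered for wild-type library 3, so its deposited values stand in for reads throughout. Its counting intervals and those of pair 3 are therefore approximate. The limma script was tested on simulated data. Permutation tests and intervals used scipy 1.17.1. The members, lists and comparisons were chosen with earlier results of these data known. Named genes are the 5 members, listed genes past the threshold or whose role bears on the 5, the 3 genes most like each member, their neighbours, and CTCF. Of 15438 IDs, 14606 matched a symbol.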

Additional observations from a re-analysis of the deposited data

How the results depend on the processing

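With all 6 libraries, the count of called genes was 0 in limma, edgeR and limma-voom, 220 in DESeq2 with the same low-count filter and 127 in DESeq2 without it. DESeq2 was first run without the filter, and the filtered form, which changes the tool alone, was put in its place after that count had been seen and with an earlier filtered count known. Leaving out 1 library at a time gave 0 to 471 called genes, the highest without mutant library 1. Libraries 2 and 3 alone gave 975, and 1230 with the table as a replicate block, but 180 with DESeq2 and 162 with DESeq2 without the filter. There BEAF-32 passed at a log2 fold change of 1.64 and Dref at -0.41, each with and without the block. Neither passed when mutant library 1 alone was left out (limma adjusted p = 0.118 for BEAF-32 and 0.0977 for Dref). The same held when wild-type library 1 alone was left out (limma adjusted p = 0.307 and 0.550). For Cp190 the log2 fold change was 0.72 with all 6, -0.0518 without mutant library 1, and -0.0594 in libraries 2 and 3 with or without the block. Leaving out 1 library at a time gave -0.0518 to 1.10 for Cp190. In libraries 2 and 3 Dref missed the threshold with DESeq2, at -0.40 with the filter and -0.42 without it, and without a scaling factor, at -0.40. The cause was not tested. Whether sharing a table paired the libraries could not be settled. Deviations from the genotype mean correlated at -0.15, -0.12 and -0.08 for libraries of the same table. For libraries of different tables they correlated at -0.12 to 0.14. Deviations from a mean of 3 libraries are tied to each other, so these values cannot tell a shared table effect from none.

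The planned description by promoter motif was not run, since no promoter sequence was used here. Each genotype had 3 libraries, 1 of them apart from the others, and Dref rested on 42 to 168 reads in a library.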
